A study of Penicillium oxalicum with 6 samples.

Results

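A set of 48 scattered genes of Penicillium oxalicum, a soil mould studied for its secreted enzymes, stood far lower in mycelium lacking the gene POX01387 than in its parental strain. The genes were chosen from the measured values themselves. A gene entered the set when its lowest value in 3 Δku70 libraries was at least 10 FPKM and at least 4 times its highest value in 3 ΔPOX01387 libraries. FPKM counts sequenced fragments scaled for transcript length and for the size of the library. Of 9727 genes measured, 70 met both limits, as the 48 genes and another 22 that are on a list of 66 IDs kept out of the set, made of 8 runs of consecutive numbers and 13 single IDs. Since the difference between the strains chose the genes, their levels in the strains are given below as a description, with no test.

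The mutant ΔPOX01387 lacks POX01387. It was compared with Δku70, its parental strain, which lacks ku70. As a strain made from Δku70, the mutant is taken to lack ku70 as well, although its sample titles name only POX01387. Both strains were first grown in glucose medium, and about a gram of mycelium was then moved for 24 h to liquid medium with Avicel at 2%. Avicel is a microcrystalline cellulose that the fungus must break down outside its cells before it can feed on it. Each strain had 3 libraries of bulk mycelium. The labels do not say whether they came from separate cultures, nor how many transformants the mutant stands for, so p-values measure only the spread between these libraries. No second deletion strain and no strain with the gene put back was analysed here.

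Ku70 belongs to the complex that rejoins broken DNA ends, and fungi without it take up replacement DNA mainly at the matching locus, which is why such strains serve as parents for gene deletions. When a mould moves from glucose to cellulose, glucose repression is relieved and many genes are switched on, among them those for secreted enzymes, sugar transporters and secondary metabolism. Regulators can act on genes spread over the genome or on groups of neighbours. The deposited tables pair no ID with a gene name, a product or a position, and 0 of the 9727 IDs matched the RefSeq table of this species. The genes are therefore called by their IDs, and their functions are not known here.

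The deleted gene followed the strain labels, at 0.02, 0 and 0 FPKM in the ΔPOX01387 libraries and 9.4, 6.89 and 6.14 FPKM in the Δku70 libraries. It lies under the limit of 10 FPKM and is not one of the 48. Depth in reads is unknown, because FPKM were deposited. The most frequent ratio of low values to those of Δku70 replicate 1 lay between 1 and 1.04 in the other 5 libraries. Unchanged genes can give such a ratio at unequal depths too, so it does not show what 1 read was worth in each. Over all 8925 genes tested between the strains with limma (two-sided, adjusted p under 0.05), 47.9% differed and the median log2 fold change was -0.15. It was 0.01 after median-of-ratios scaling, which brings this median near 0 by its design, and -0.18 after scaling to equal sums. The size of small decreases therefore depends on the scaling chosen, and which scaling is right was not tested.

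The 48 genes were far lower in the mutant, by their choice, and most kept a measurable level. Their mean level in ΔPOX01387 was between 0.451% and 19.9% of the mean in Δku70, with a median of 12.4%. Among the other 6899 genes with at least 10 FPKM in every Δku70 library, the median was 89.4%. In the mutant 0 of the 48 genes were listed at 0 in any library, and the lowest value of all was 0.12 FPKM. Values this low rest on an unknown number of reads, and the deleted gene itself was listed at 0.02 FPKM in 1 mutant library. In bulk libraries fewer hyphae with a transcript and less transcript per hypha cannot be told apart. The limma fit called 48 of 48 genes lower, where 32.6% of all tested genes were called lower; the choice of the genes fixes that count.

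**Figure D1:**
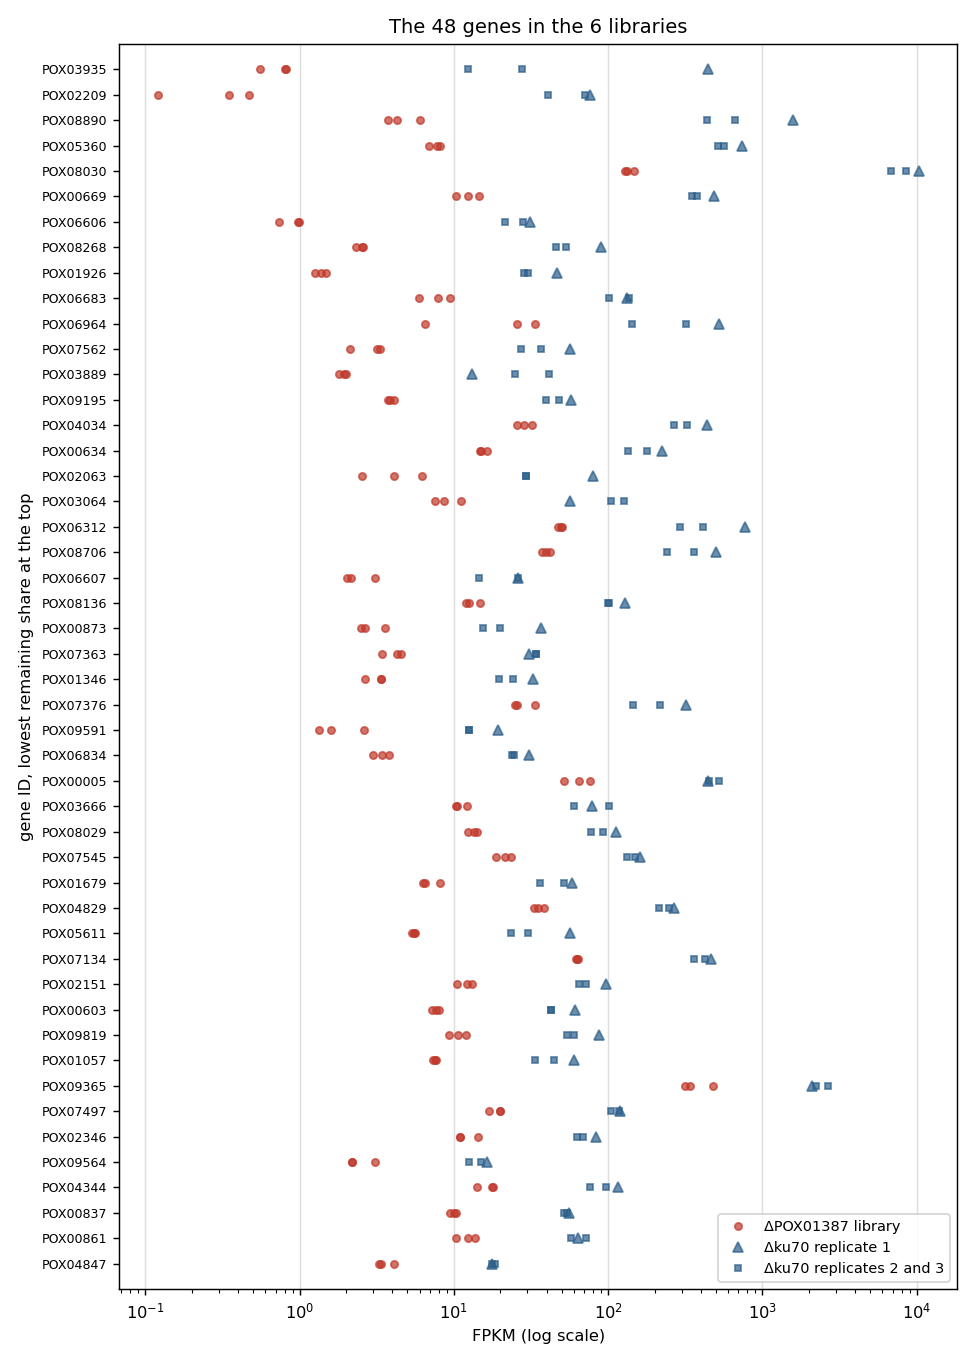
FPKM on a log axis of the 48 genes in each of the 6 libraries, with 1 row per gene and 1 point per library, ordered by the share of the parental mean that remained in the mutant. Every ΔPOX01387 point lies left of every Δku70 point of its gene, as the rule demands, and Δku70 replicate 1 (triangles) is the highest of the 6 libraries in 39 of 48 rows.

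The set covered a wide range of abundance. Mean levels in ΔPOX01387 ran between 0.313 and 378 FPKM with a median of 8.44 FPKM, and mean levels in Δku70 between 14.7 and 8614 FPKM with a median of 75.0 FPKM. In the mutant 3 genes stayed below 1 FPKM in every library, 21 lay between 1 and 10 FPKM in every library, and 20 had at least 10 FPKM in every library. In the parental strain 18 genes had a mean under 50 FPKM, 11 a mean from 50 to under 100 FPKM, 8 from 100 to under 300 FPKM, 9 from 300 to under 1000 FPKM and 2 more than that. Ordered by mean level among all 9727 genes, the median rank of the 48 was 7196.5 in ΔPOX01387 and 2242.5 in Δku70. As a share of all summed FPKM, the genes took 0.108% ± 0.012 in ΔPOX01387 and 1.78% ± 0.36 in Δku70 (SD, n = 3 each).

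**Figure D2:**
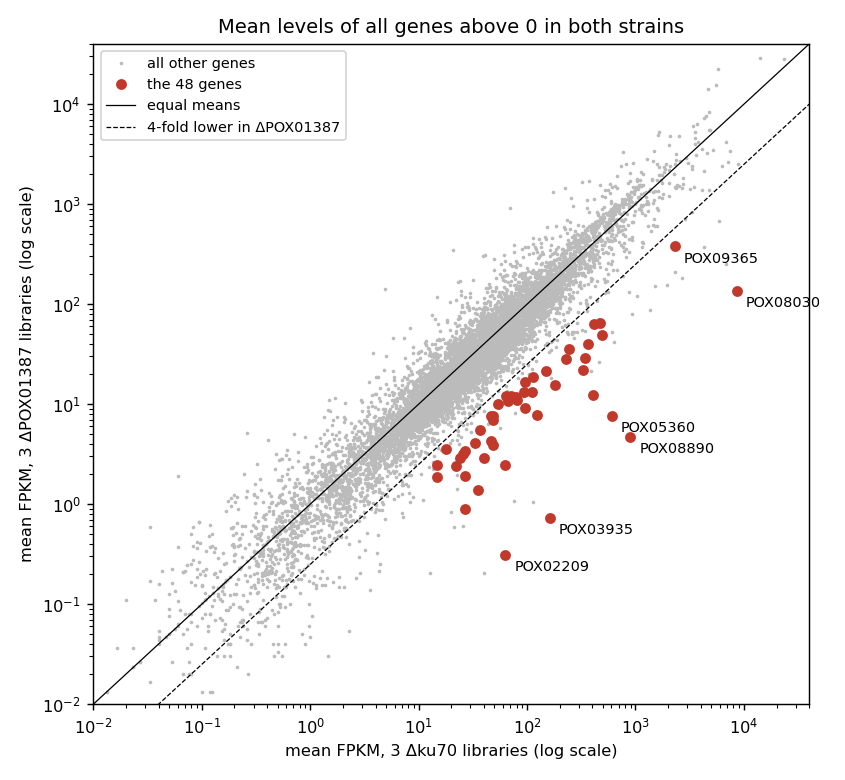
Mean FPKM of every gene above 0 in both strains, ΔPOX01387 on the vertical and Δku70 on the horizontal axis, both logarithmic, with n = 3 libraries per mean. The 48 genes (red) lie under the dashed line of a 4-fold lower mean, and POX08030 stands farthest to the right of them at 137 FPKM in ΔPOX01387 and 8614 FPKM in Δku70.

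POX08030 alone carried a large part of the parental sum. It had 147, 129 and 134 FPKM in the ΔPOX01387 libraries, against 10423, 6851 and 8568 FPKM in the Δku70 libraries. The mutant libraries lay close together, and each was far under the lowest parental one. The gene was at rank 1192 in ΔPOX01387 and at rank 4 of all genes in Δku70, and 1.59% of its parental mean remained. It took 0.0132% ± 0.0009 of the summed FPKM in ΔPOX01387 and 0.851% ± 0.173 in Δku70, and the other genes of the set together took 0.0951% ± 0.0115 and 0.925% ± 0.188 (SD, n = 3 each).

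POX09365 was the most abundant of the 48 genes in the mutant, with 338, 316 and 481 FPKM in the ΔPOX01387 libraries and 2095, 2213 and 2647 FPKM in the Δku70 libraries. The gene kept 16.3% of its parental mean and moved to rank 463 in ΔPOX01387, against rank 53 in Δku70. It and POX08030 were the 2 genes with 100 FPKM or more in any mutant library. Both were still well expressed without POX01387, although the share that remained differed widely between them.

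In 3 genes the transcript came close to the floor of the data. POX02209 had 0.35, 0.47 and 0.12 FPKM in the ΔPOX01387 libraries and 76.6, 40.7 and 71.3 FPKM in the Δku70 libraries. It had the widest gap between the strains, its lowest parental value being 86.6 times its highest mutant value. POX06606 had 0.74, 0.99 and 0.98 FPKM in ΔPOX01387 and 31.4, 28.1 and 21.4 FPKM in Δku70. The libraries of each strain were close for this gene. POX03935 had 0.82, 0.55 and 0.81 FPKM in ΔPOX01387, against 444, 12.4 and 27.6 FPKM in Δku70. Its parental replicate 1 stood far above the other 2 parental libraries, of which the lower lay just over the 10 FPKM limit.

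Because of that library, the depth of the loss of POX03935 is uncertain. The share that remained was 0.451% with all libraries and 3.64% without Δku70 replicate 1. That library also moved the remaining share by over 1.5 times for POX08890, which was 0.523% with it and 0.850% without it, and for POX02063, which was 9.28% with it and 14.6% without it. POX08890 had 6.07, 4.27 and 3.77 FPKM in ΔPOX01387 and 1589, 439.7 and 667 FPKM in Δku70. The gene was at rank 7857 in ΔPOX01387 and at rank 164 in Δku70, and POX05360 was at rank 7355 in ΔPOX01387 and at rank 265 in Δku70. Both thus moved from the abundant transcripts of the parental strain to the weak ones of the mutant. No library left out moved the remaining share of another gene of the set by over 1.5 times.

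Besides POX03935, POX02209, POX06606, POX08890 and POX08030, the group that kept under 5% of the parental level held POX05360, POX00669, POX08268 and POX01926, which made it 9 genes. POX05360 had 7.72, 8.18 and 6.87 FPKM in ΔPOX01387 and 735, 519 and 567 FPKM in Δku70, so that 1.25% remained. POX00669 had 12.4, 14.5 and 10.3 FPKM in ΔPOX01387 and 489, 348 and 377 FPKM in Δku70, with 3.07% left. Both were strongly expressed in every parental library. POX08268 was a gene of middling level, at 2.54, 2.57 and 2.31 FPKM in ΔPOX01387 and 89.4, 45.9 and 53.5 FPKM in Δku70, and 3.93% remained. POX01926, at 1.38, 1.26 and 1.49 FPKM in ΔPOX01387 and 46.4, 30.2 and 28.4 FPKM in Δku70, also kept 3.93%. The mutant libraries varied less for these 2 genes than the parental ones, in which replicate 1 was the highest.

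Another 10 genes kept between 5% and 10% of the parental mean. The strongly expressed ones were POX06312, POX04034, POX06964 and POX00634. POX06312 had 47.0, 49.4 and 50.3 FPKM in ΔPOX01387 and 769.5, 293 and 412 FPKM in Δku70. Its mutant libraries were nearly equal while its parental libraries differed 2.62-fold. POX04034 had 28.4, 25.7 and 32.2 FPKM in ΔPOX01387 and 436, 325 and 267 FPKM in Δku70. POX00634 had 15.1, 14.7 and 16.5 FPKM in ΔPOX01387 and 225, 135 and 178 FPKM in Δku70. For both, the lowest parental library was more than 8 times the highest mutant one.

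POX06964 varied in both strains. It had 25.7, 33.8 and 6.48 FPKM in the ΔPOX01387 libraries and 522, 322 and 142 FPKM in the Δku70 libraries. Replicate 3 was the lowest library in each strain, and the range between the libraries was 5.22-fold in ΔPOX01387 and 3.66-fold in Δku70. The neighbouring ID POX06963 had a like order, at 36.7, 62.3 and 24.5 FPKM in ΔPOX01387 and 224, 160 and 75.9 FPKM in Δku70. POX06964 and POX03935 were the 2 genes of the set whose libraries of 1 strain ranged over more than 4-fold.

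The other genes of this group were weaker. POX06683 averaged 7.78 ± 1.74 FPKM in ΔPOX01387 and 124 ± 19.1 FPKM in Δku70 (SD, n = 3 each), with 6.27% remaining. POX07562, POX03889, POX09195, POX02063 and POX03064 had parental means of 40.1, 26.6, 48.3, 46.2 and 95.9 FPKM, and kept 7.15%, 7.21%, 8.08%, 9.28% and 9.50% of them in ΔPOX01387. POX03889 and POX03064 went against the usual order of the parental libraries. POX03889 had 1.99, 1.81 and 1.95 FPKM in ΔPOX01387 and 13.2, 41.6 and 25.0 FPKM in Δku70. POX03064 had 7.60, 8.66 and 11.1 FPKM in ΔPOX01387 and 56.3, 105 and 126 FPKM in Δku70. In both, Δku70 replicate 1 was the lowest parental library and not the highest.

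The largest group, 16 genes, kept between 10% and 15% of the parental mean. Its strongest member was POX00005, with 64.7, 51.5 and 76.3 FPKM in ΔPOX01387 and 442, 449.7 and 520.1 FPKM in Δku70. POX08706 had 37.5, 39.9 and 42.1 FPKM in ΔPOX01387 and 504, 239 and 361 FPKM in Δku70. The strains were far apart in both genes, and the parental spread was wide only for the second of them. POX04829 averaged 35.6 ± 2.7 FPKM in ΔPOX01387 and 243 ± 27.3 FPKM in Δku70. POX07376 averaged 28.1 ± 4.9 FPKM in ΔPOX01387 and 227 ± 87.8 FPKM in Δku70 (SD, n = 3 each in both sentences). All 4 genes were strongly expressed in every parental library.

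Of the same group, POX07545 and POX08136 were of middling abundance, with parental means of 148 and 110 FPKM, of which 14.3% and 11.9% remained in ΔPOX01387. POX08029 and POX03666 had parental means of 94.0 and 79.9 FPKM and kept 14.2% and 13.8%. The remaining 8 genes were POX06607, POX00873, POX07363, POX01346, POX09591, POX06834, POX01679 and POX05611, which averaged between 1.85 and 6.98 FPKM in ΔPOX01387 and between 14.9 and 48.7 FPKM in Δku70. POX07363 was the steadiest of these between parental libraries, with 4.53, 3.41 and 4.29 FPKM in ΔPOX01387 and 30.7, 34.2 and 34.2 FPKM in Δku70. POX05611 was the steadiest in the mutant, at 5.58, 5.49 and 5.39 FPKM in ΔPOX01387 and 56.8, 23.5 and 30.4 FPKM in Δku70.

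The last 13 genes kept between 15% and 20%. POX09365, described above, and POX07134 were the most abundant of them in the parental strain. POX07134 had 62.7, 63.9 and 61.8 FPKM in ΔPOX01387 and 465, 363 and 426 FPKM in Δku70. Its mutant libraries lay within 1.03-fold of each other. POX07497, with 19.9, 16.9 and 19.9 FPKM in ΔPOX01387 and 119, 104 and 117 FPKM in Δku70, was steady in both strains. POX04344, POX02151, POX02346, POX09819 and POX00861 had parental means of 96.4, 78.2, 71.8, 66.9 and 64.5 FPKM, and between 15.2% and 18.8% of them remained in ΔPOX01387. POX00837, POX00603, POX01057, POX04847 and POX09564 had parental means between 14.7 and 53.8 FPKM.

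POX04847 had the shallowest loss in the set and POX00837 the third shallowest, and both were among the most even genes in the parental strain. POX04847 had 4.07, 3.35 and 3.28 FPKM in ΔPOX01387 and 17.7, 17.7 and 18.4 FPKM in Δku70, a coefficient of variation of 2.36% in the parental strain. POX00837 had 9.49, 10.1 and 10.4 FPKM in ΔPOX01387 and 55.8, 54.1 and 51.5 FPKM in Δku70.

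The 4-fold limit cut through a continuous range of values. Just inside the 4-fold limit lay POX09564, POX00861 and POX05611, whose lowest parental value was 4.07, 4.15 and 4.20 times the highest mutant value. Just outside it lay POX02215, POX06377 and POX08137, at 3.99, 3.90 and 3.88 times. Values were sparser around the limit of 10 FPKM. The nearest members inside it were POX03935, POX09591 and POX09564, with lowest parental values of 12.4, 12.6 and 12.6 FPKM. The nearest genes below it that met the 4-fold limit were POX01254, POX05818 and POX06144, at 9.5, 8.99 and 6.58 FPKM. The opposite pattern, with the roles of the strains exchanged in both limits, was found for 15 genes. The excluded list was not applied to that count. Its counterpart is therefore the 48 genes together with the 22 on the list that met the limits.

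The 48 genes varied more between parental libraries than the bulk of the other genes did. The median coefficient of variation was 12.6% in ΔPOX01387 and 22.7% in Δku70 for the set, and 8.60% in ΔPOX01387 and 9.39% in Δku70 for the 6899 other genes with at least 10 FPKM in every Δku70 library. It was higher in Δku70 than in ΔPOX01387 for 34 of the 48 genes and for 55.9% of the others. The others kept a median of 89.4% of their parental mean, and strongly lowered genes outside the set were not compared apart, here or below. Whether the spread is particular to the set is therefore not known. These are spreads across genes of the same 6 libraries, and genes are not independent replicates, so no test is given.

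The parental spread had a direction. Δku70 replicate 1 was the highest parental library for 39 of the 48 genes, or 81.2%, and for 46.7% of the 6899 other genes. Δku70 replicate 2 was the lowest for 34 of the 48 genes, or 70.8%, and for 44.4% of the others. The median ratio of replicate 1 to the mean of the other 2 parental libraries was 1.35 in the set and 1.04 in the other genes. The rule read the lowest parental value, and the lowest library cannot also be the highest. The order of the parental libraries in the set is thus not independent of the rule and is a description. In the mutant no library led in this way, with replicate 3 the highest for 22 of the 48 genes and replicates 1 and 2 for 13 each. What set Δku70 replicate 1 apart was not tested. Without it the median remaining share was 13.9%, against 12.4% with all libraries.

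**Figure D3:**
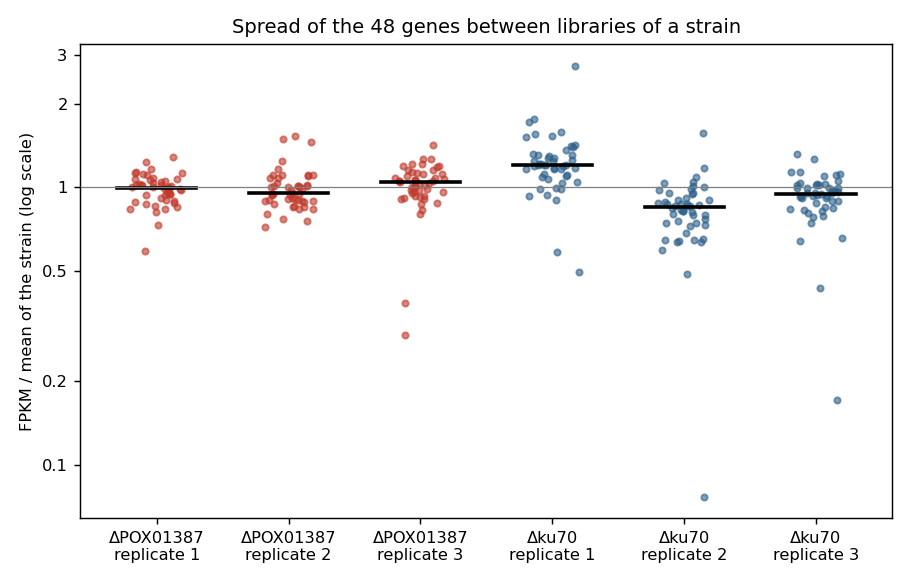
Level of each of the 48 genes in a library divided by the mean of its strain, on a log axis, with 1 point per gene and library and the median as a black bar. The medians are 1.00, 0.952 and 1.05 in ΔPOX01387 replicates 1, 2 and 3 and 1.21, 0.850 and 0.951 in Δku70 replicates 1, 2 and 3.

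The IDs of the set were spread over the whole range of numbers, between POX00005 and POX09819. Each stretch of 1000 numbers held between 2 and 7 of the 48 genes, and the median step between successive members was 168. There were 2 pairs with consecutive numbers, POX06606 with POX06607 and POX08029 with POX08030, and no longer run, which follows in part from the runs kept out of the set. The partners of a pair differed in level and in loss. POX06607 had 2.02, 2.17 and 3.07 FPKM in ΔPOX01387 and 26.0, 26.0 and 14.6 FPKM in Δku70, so that 10.9% remained, against 3.35% for POX06606. POX08029 had 14.2, 13.4 and 12.3 FPKM in ΔPOX01387 and 113, 77.1 and 92.4 FPKM in Δku70, so that 14.2% remained, against 1.59% for POX08030. No source used here says whether consecutive numbers are neighbours in the genome.

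Neighbouring IDs outside the set were tested in the same limma fit. The rule read every gene, and the neighbours that met it are members themselves, so the tested ones are those that did not meet it. Of 91 genes numbered directly below or above a member, and neither members nor on the excluded list, 87 had a mean of at least 1 FPKM and were tested. In ΔPOX01387 49 of them fell, or 56.3%, where 32.6% of all tested genes fell (limma, two-sided, adjusted p under 0.05 over all 8925 genes). Only 6 of the 87 rose, or 6.90%, against 15.3% of all tested genes. A decrease of at least 2-fold was called for 19 of the 87, or 21.8%, against 6.8% of all tested genes. The median log2 fold change of the 87 neighbours was -0.51, against -0.15 for all tested genes. Their median parental level, 30.6 FPKM, was close to the 33.1 FPKM of all tested genes.

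The shares were lower farther along the numbers, a difference that was not tested. Of the genes 2 to 5 numbers away from a member, 32.6% of 310 fell and 8.71% fell by at least 2-fold. Single distances varied, with 10.7% and 11.4% at least 2-fold lower at distances 2 and 3, and 40% called lower at distance 4. Of those 6 to 10 numbers away, 30.2% of 368 fell and 4.08% fell by at least 2-fold. Among the 8046 tested genes farther away the shares were 31.6% and 5.51%. Both sides of the members held lowered neighbours, 29 of 45 below, or 64.4%, and 20 of 42 above, or 47.6%, against 32.6% of all tested genes. The next counts take only tested neighbours that are neither members nor on the excluded list, so a member beside another member does not count. Of the 48 genes, 15 had such a lowered neighbour on both sides, 19 on 1 side and 14 on neither. At least 1 such neighbour fell by 2-fold or more for 16 of the 48. These per-gene counts were not made for genes outside the set. Since 32.6% of all tested genes fell, and 6.8% by at least 2-fold, part of them is background of unknown size.

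**Figure D4:**
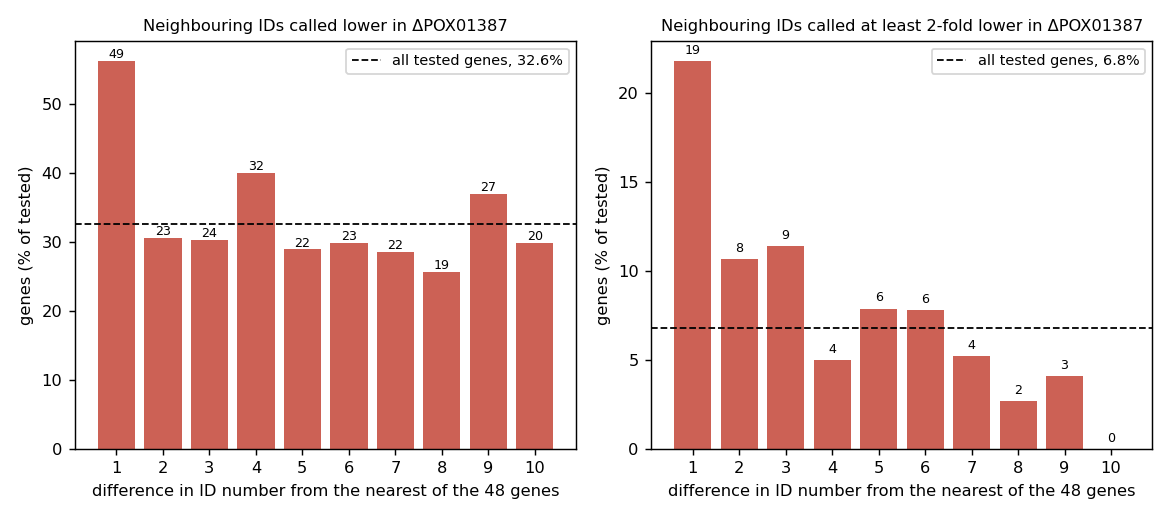
Share of tested genes called lower in ΔPOX01387 (left) and called at least 2-fold lower (right), by the difference of their ID number from that of the nearest of the 48 genes, with the number of called genes over each bar and the share of all tested genes as a dashed line. At a difference of 1 the shares are 56.3% and 21.8%, against 32.6% and 6.8% for all tested genes.

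The strongest change of a neighbour was that of POX08705, next to POX08706. It had 0.31, 0.2 and 0.1 FPKM in ΔPOX01387 and 24.2, 3.15 and 10.8 FPKM in Δku70, which is -3.16 ± 0.60 as a log2 fold change (SE; adjusted p = 0.0066, limma) with strains that did not overlap. Its parental libraries had the same order as those of POX08706, with replicate 1 highest and replicate 2 lowest. POX08890 was flanked on both sides. POX08889 had 35.0, 34.0 and 36.1 FPKM in ΔPOX01387 and 212, 123 and 165 FPKM in Δku70, which is -2.18 ± 0.19 as a log2 fold change (SE; adjusted p = 0.00052, limma). POX08891 had 11.7, 10.6 and 18.0 FPKM in ΔPOX01387 and 38.0, 38.7 and 50.2 FPKM in Δku70, which is -1.61 ± 0.21 as a log2 fold change (SE; adjusted p = 0.0017, limma). Both fell less than POX08890 itself, and their libraries did not overlap between the strains.

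POX08136 and POX09564 also stood between a pair of genes that each fell by at least 2-fold. POX08137 had 3.4, 3.02 and 4 FPKM in ΔPOX01387 and 16.1, 15.5 and 16.9 FPKM in Δku70, which is -1.95 ± 0.12 as a log2 fold change (SE; adjusted p = 0.00013, limma), and POX08135 fell by 1.59 on the log2 scale. These 2 genes are weaker than POX08136, which averaged 13.1 FPKM in ΔPOX01387 and 110 FPKM in Δku70. POX09563 had 24.6, 21.3 and 27.8 FPKM in ΔPOX01387 and 139, 66.8 and 98.2 FPKM in Δku70, which is -1.95 ± 0.26 as a log2 fold change (SE; adjusted p = 0.0019, limma), and POX09565 fell by 1.76 on the log2 scale. Here the neighbour below was stronger than the member, as POX09564 averaged 2.49 FPKM in ΔPOX01387 and 14.7 FPKM in Δku70.

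The other neighbours that fell by at least 2-fold were POX09818, POX07375, POX01927, POX06963, POX01680, POX04345, POX03890, POX00862, POX00006, POX00836, POX07133 and POX05361. POX09818, beside POX09819, was weak and nearly gone in the mutant, at 0, 0 and 0.75 FPKM in ΔPOX01387 and 3.31, 5.45 and 4.36 FPKM in Δku70. POX07375, beside POX07376, was well expressed, with 28.3, 38.9 and 48.6 FPKM in ΔPOX01387 and 130.1, 141 and 168 FPKM in Δku70, and the log2 difference between the strains came to -1.92 ± 0.20 (SE; adjusted p = 0.00089, limma). POX00836, beside POX00837, was the most abundant of the 19, at 146, 156 and 174 FPKM in ΔPOX01387 and 389, 309 and 400.2 FPKM in Δku70. The 12 genes had log2 fold changes between -2.14 and -1.02. The call of POX01927, with which is -1.85 ± 0.54 as a log2 fold change (SE; adjusted p = 0.030, limma), was lost without ΔPOX01387 replicate 1, at an adjusted p of 0.091, and without replicate 3, at 0.082. That of POX06963, at -1.84 ± 0.47 (SE; adjusted p = 0.018, limma), was lost without ΔPOX01387 replicate 1, at an adjusted p of 0.058.

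POX03934, next to POX03935, was too weak to be tested, at 0, 0.09 and 0 FPKM in ΔPOX01387 and 3.48, 0.41 and 0.49 FPKM in Δku70. Its parental replicate 1 stood above the other 2 parental libraries, as in POX03935. The labels' protocols describe no step that marks the strand, and positions are not known here. Fragments shared between overlapping neighbours therefore cannot be told apart from separate transcripts.

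Neighbours did not always follow. POX06835, next to POX06834, rose in the mutant, at 401, 364 and 365 FPKM in ΔPOX01387 and 117, 125 and 110 FPKM in Δku70. This was a log2 difference of 1.68 ± 0.09 (SE; adjusted p = 8.4e-05, limma), the only rise of at least 2-fold that was called among the 87, where 3.6% of all tested genes rose that far. POX02210 and POX06608 were also more than 2-fold higher but were not called, at an adjusted p of 0.25 and 0.12 (limma). POX06834 itself averaged 3.41 FPKM in ΔPOX01387 and 26.5 FPKM in Δku70, and POX06833, on its other side, rose by 0.60 ± 0.12 (SE; adjusted p = 0.0081, limma). The lowered gene thus stood between 2 raised ones. POX07134 had a neighbour moving each way, with POX07135 at 1644, 1706 and 1498 FPKM in ΔPOX01387 and 756, 959 and 845 FPKM in Δku70 and POX07133 at 17.2, 19.2 and 18.1 FPKM in ΔPOX01387 and 43.0, 34.4 and 37.8 FPKM in Δku70. POX00670, POX07546 and POX03665 were the other neighbours called higher, with log2 fold changes of 0.93, 0.41 and 0.29. The count of 6 fell to 3 without ΔPOX01387 replicate 1, without ΔPOX01387 replicate 2 and without Δku70 replicate 3.

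POX08030 and POX02209, both among the 9 most deeply lowered genes, had no neighbour outside the set that was called. On either side of POX08030 and POX08029, POX08031 had 99.7, 90.5 and 79.0 FPKM in ΔPOX01387 and 74.3, 72.9 and 74.3 FPKM in Δku70, and POX08028 stayed under 5 FPKM in every library. Neither was called. POX02208, below POX02209, was a weak gene that was not called, with which is -0.52 ± 0.29 as a log2 fold change (SE; adjusted p = 0.18, limma). POX02210, above it, had 35.7, 27.6 and 8.44 FPKM in ΔPOX01387 and 0.64, 23.1 and 9.79 FPKM in Δku70. Its libraries overlapped between the strains and spread widely within each, and it was not called.

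The share of neighbours called lower depended on the scaling together with that of all genes. With median-of-ratios scaling 34 of the 87 fell, or 39.1%, against 22.1% of all tested genes, and 11 rose, or 12.6%, against 23.7%. With quantile normalization 37 fell, or 42.5%, against 22% of all tested genes, and 11 rose, or 12.6%, against 21.4%. Decreases of at least 2-fold were then found for 17 of the 87 under either scaling, or 19.5%, against 4.88% and 4.99% of all tested genes. The 48 genes were lower in ΔPOX01387 under both scalings, with a median remaining share of 13.9% and 14.0%.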

How the data were processed

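Per the labels' protocols, mRNA of bulk mycelium was reverse transcribed from random primers and read on a BGISEQ instrument. RSEM 1.2.12, DESeq2, Bowtie2 2.1.0 and BWA 0.7.10-r789 appear in the submitters' processing notes without the step they served. The sources used here give neither genome build nor annotation. For each gene and library the authors deposited 1 FPKM value, per the file headers. Counts were not used, so no counting interval or floor is given.

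Groups and replicate numbers come from the sample titles. Values were analysed as log2(FPKM + 1), on which fold changes of weak genes are understated. The 8925 of 9727 genes whose mean reached 1 FPKM were tested with limma 3.58.1 in R 4.3.3 (intensity trend, two-sided, Benjamini-Hochberg adjustment over all tested genes, threshold 0.05), tested on simulated data. Remaining shares and coefficients of variation are on the FPKM scale, computed with Python 3.11.15 and pandas 2.3.3. Members and lists were chosen with earlier results of these data known. The rule for named genes took the members lowest in the mutant, highest in the parent, widest in range, consecutive or nearest the limits, and neighbouring IDs called and changed at least 2-fold; other IDs, such as the untested or uncalled neighbours and those called higher by less than 2-fold, were chosen after their values were seen. Alternatives were other pseudocounts, filters, scalings, priors, limits of the rule, a replicate block and leaving out each library.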

Additional observations from a re-analysis of the deposited data

How the results depend on the processing

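With a 3-fold limit 84 genes met the rule that chose the set of 48, with a 6-fold limit 18, and with the ratio of strain means in place of extremes 105. With limits of 5 and 20 FPKM the numbers were 54 and 40. Leaving out 1 library gave between 50 and 70 genes, a number that the rule only lets grow and that always holds the 48; it was 70 without Δku70 replicate 2. Of the 48, 38 were kept with median-of-ratios scaling and 36 with quantile normalization. All 48 kept their direction and their call in limma under every alternative run, which their choice largely fixes. Leaving out 1 library gave between 2960 and 4002 differing genes, of which between 830 and 1345 were higher, against 4272 and 1366. The higher genes numbered 830 without ΔPOX01387 replicate 1, 898 without ΔPOX01387 replicate 2 and 868 without Δku70 replicate 3, and 2117 with median-of-ratios scaling. Neighbouring IDs called lower ranged between 35 and 46 without 1 library, or 40.7% to 53.5%, against 49, while the share of all genes called lower lay between 23.5% and 30.7%. Those called higher lay between 3 and 6, against 6, with 9.29% to 15.1% of all genes, and were 11 under median-of-ratios scaling and under quantile normalization. The count of neighbours at least 2-fold lower, 19, was rerun by a choice made after seeing the data and lay between 13, or 14.9% against 4.31% of all genes, with a pseudocount of 5, and 23, or 26.4% against 8.26%, with one of 0.1. POX01927 was not called with a pseudocount of 5, at an adjusted p of 0.051. The cause of these shifts was not tested. Leaving out a library changes both the number of libraries and which ones are compared. The main fit did not take the replicate numbers as pairs. The deviations of equally numbered libraries correlated at 0.088, 0.27 and 0.54, and those of unequally numbered ones at -0.52 to 0.097. Each mutant library was closest to the parental library of its own number. Δku70 replicate 1 was slightly closer to ΔPOX01387 replicate 2, at 0.097, than to ΔPOX01387 replicate 1, at 0.088. Whether equally numbered libraries shared a step was not tested. With the replicate block 4585 genes differed, with 34.2% of all tested genes lower and 17.2% higher. In that fit 50 neighbouring IDs were called lower, or 57.5%, and 7 higher, or 8.05%. FPKM give no depth, so values under about 1 FPKM rest on an unknown number of reads.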
